A study of Homo sapiens with 6 samples.

Results

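The cadherin superfamily was followed here through 54 genes, chosen as every gene whose symbol is CDH with a number, begins with PCDH, or is one of the Fat and Dachsous genes, and which had an array feature of its own. They are 54 of 16704 genes with such a feature. By structure and position they fall into 4 type I classical cadherins, 13 type II classical cadherins, 4 atypical cadherins, 4 large cadherins of the Fat and Dachsous group, 11 protocadherins outside the gene clusters and 18 genes of the beta protocadherin cluster on chromosome 5. Of the beta genes, PCDHB17P and PCDHB18P are pseudogenes. Each gene had 1 such feature.

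The cells were LNCaP, an androgen-responsive human prostate cancer line, carrying a stable short hairpin RNA from a neomycin-selected vector. Control cells carried a scrambled hairpin and knockdown cells a hairpin against MBD2, whose protein reads CpG methylation and brings a repressor complex to it. Per the series' design text the 3 arrays of each group came from 3 separate stably transfected clones, so each clone also carries whatever sets it apart from its sister clones. Cytoplasmic RNA of each clone was read on 1 Affymetrix array of the Gene ST type.

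Cadherins are transmembrane proteins that hold neighbouring cells together through calcium-dependent repeats outside the cell. Classical cadherins bind catenins inside the cell and through them the actin skeleton, and E-cadherin is the main one of prostate luminal epithelium. Many protocadherins and several classical cadherins are known as genes whose CpG-rich promoters become methylated in tumours. In the clustered protocadherins, each gene has its own promoter, a cell uses only some of them, and the DNA-binding protein CTCF binds a short conserved element at most of these promoters. The question of the comparison is which genes change when MBD2, a reader of methylated CpG, is reduced.

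A promoter sequence of 300 bases, from 250 before to 50 after the listed start of transcription, was found in the RefSeq table (GRCh38.p14) for 36 of the 54 genes. CDH1, PCDH10 and PCDH20 are among the genes without one, so the promoter counts do not cover them. The beta cluster shared a short element. The 9 letters GGTGGCGCT, searched on both strands, were picked because no other run of 9 letters was shared by more of these promoters. They stood in 13 of the 14 beta promoters given there, in 0 of the 22 promoters of the other genes followed, and in 0.524% of all 27305 promoters. The windows below show the element in capitals, with 25 bases on each side, 5′ to 3′ on the plus strand of chromosome 5, for PCDHB genes that the clone values below turn on. PCDHB1 is shown as the exception: its closest match agrees at 8 of the 9 bases and carries C6T, counted from the 5′ end of the element, so that the CpG inside the element is missing.
PCDHB2: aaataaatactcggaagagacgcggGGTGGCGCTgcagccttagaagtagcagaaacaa
PCDHB3: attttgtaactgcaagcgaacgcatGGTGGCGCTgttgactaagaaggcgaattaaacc
PCDHB5: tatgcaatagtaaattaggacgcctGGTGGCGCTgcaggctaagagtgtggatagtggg
PCDHB9: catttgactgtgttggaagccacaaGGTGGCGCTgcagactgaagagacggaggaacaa
PCDHB13: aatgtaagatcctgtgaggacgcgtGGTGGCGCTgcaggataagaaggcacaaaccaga
PCDHB1: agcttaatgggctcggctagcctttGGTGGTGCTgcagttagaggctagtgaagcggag
These windows lie at chr5:141094530-141094588, chr5:141100379-141100437, chr5:141135165-141135223, chr5:141187060-141187118, chr5:141213851-141213909 and chr5:141051323-141051381, in the same order.

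The promoters differed widely in CpG, the dinucleotide that MBD2 binds when it is methylated. The number of CpG in the 300 bases ran from 3 to 43 among the 36 genes with a median of 9, against a median of 14 over all promoters in the table, and 7 of the 36 had 20 or more, as did 41.2% of all promoters. In the 14 beta promoters it lay between 5 and 12. Where several starts are listed, as for 8 of the 36, the first was used. Shown next, with every CpG in capitals, are CDH26 and PCDH1, whose arrays gave clear signal, and CDH23, the most CpG-dense promoter of the set.
CDH26: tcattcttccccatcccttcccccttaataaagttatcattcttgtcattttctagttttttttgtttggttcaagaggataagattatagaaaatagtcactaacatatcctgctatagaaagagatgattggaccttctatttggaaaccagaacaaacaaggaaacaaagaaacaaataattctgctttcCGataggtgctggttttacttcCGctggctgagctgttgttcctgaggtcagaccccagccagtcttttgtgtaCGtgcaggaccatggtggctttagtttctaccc
PCDH1: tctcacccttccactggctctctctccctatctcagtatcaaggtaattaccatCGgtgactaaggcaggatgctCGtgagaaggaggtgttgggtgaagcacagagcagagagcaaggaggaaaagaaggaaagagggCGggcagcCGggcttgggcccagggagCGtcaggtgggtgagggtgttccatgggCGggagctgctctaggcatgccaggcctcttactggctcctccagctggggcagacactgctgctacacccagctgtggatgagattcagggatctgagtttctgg
CDH23: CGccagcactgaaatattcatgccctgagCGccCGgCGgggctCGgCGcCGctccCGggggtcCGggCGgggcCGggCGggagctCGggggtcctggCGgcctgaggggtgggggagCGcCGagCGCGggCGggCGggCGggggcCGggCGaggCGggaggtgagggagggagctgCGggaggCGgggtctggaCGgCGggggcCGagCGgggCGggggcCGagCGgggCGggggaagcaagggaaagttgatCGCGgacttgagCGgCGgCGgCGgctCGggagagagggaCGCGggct
They lie at chr20:59958173-59958472 (plus strand), chr5:141869578-141869877 (minus strand) and chr10:71396670-71396969 (plus strand), and hold 3, 6 and 43 CpG. The second listed start of CDH26 has 1 CpG. The methylation of these promoters was not analysed here.

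Signals are the authors' RMA values on the log2 scale. RMA removes background, aligns the arrays and condenses the probes of a feature into 1 value. Probes of different genes bind with different strength, so a signal is placed here against the distribution of its own array, not against another gene's amount of RNA. The median of all genes lay between 6.31 and 6.33 on the 6 arrays and the lower quartile between 4.68 and 4.81. MBD2 stood at 8.73, 9.24 and 9.20 in control clones 1, 2 and 3 and at 7.68, 7.84 and 7.81 in the knockdown clones, so all knockdown values lay below all control values. Its log2 fold change was -1.28 (SE 0.14, adjusted p = 0.111 in limma). Of 6 measured markers of luminal prostate cells 5 had a mean above the median of all genes. KRT8 (10.41 to 10.80) and KLK2 (8.17 to 8.93) were among them, and TRPM8 (5.09 to 7.05) had a mean below the median. Of 5 measured endothelial markers 4 had a mean under the lower quartile, for example PECAM1 (3.27 to 3.65). The exception, ENG, had a mean between the lower quartile and the median. All 4 measured haematopoietic markers had a mean under the lower quartile, for example PTPRC (2.43 to 2.72). Among these, LYZ in knockdown clone 3 and CD14 in control clone 3 lay above the lower quartile of their array. VIM, on the fibroblast list, was bright (8.29 to 9.75), and COL1A1 (7.04 to 7.44) also had a mean above the median of all genes. Of the 8 measured genes of that list 3 had a mean under the lower quartile, LUM and FBN1 among them. Of 5 measured markers of basal epithelium 2 had a mean under the lower quartile, KRT15 (4.06 to 4.58) and KRT5 (4.41 to 4.75). ITGA6 alone had a mean above the median of all genes. KRT15 and LAMB3 had an unadjusted p under 0.05 in limma, as did 9.39% of all genes, with log2 fold changes of 0.34 and 0.40. KRT5 and KRT14 had 0.17 and 0.18, and ITGA6 had -0.47 (unadjusted p = 0.119). The summed log2 signal of the 5 ran from 26.1 to 27.0 in the controls and from 26.9 to 27.4 in the knockdown clones, and its part in any result was not tested. The array of knockdown clone 1 had the narrowest spread over genes (SD 2.00 against 2.05 to 2.07 on the others) and the highest lower quartile.

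**Figure D1:**
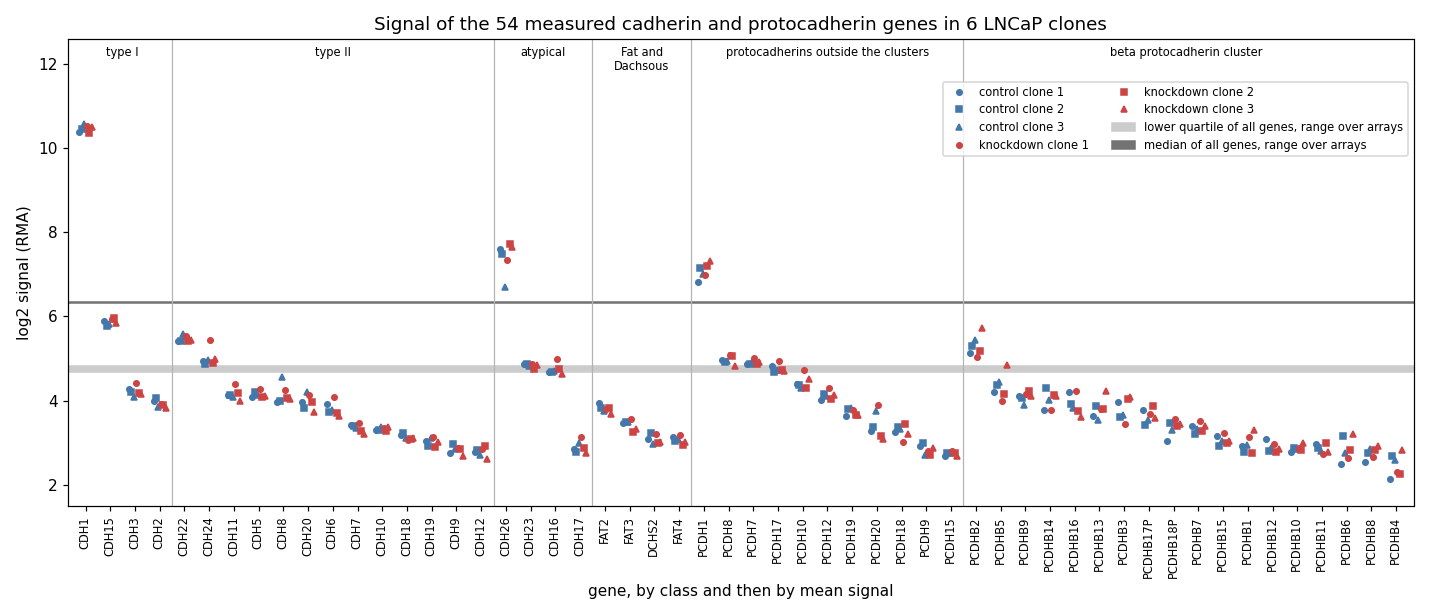
Signal of each of the 54 genes (y axis, log2 RMA value) in the 3 control clones (blue) and 3 knockdown clones (red), with genes on the x axis by class and then by mean. CDH1, CDH26 and PCDH1 lie above the median of all genes, and 42 of the 54 genes have a mean under the lower quartile (grey band).

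Most of the family gave little signal in these cells. The mean over 6 arrays was above the median of all genes for 3 of the 54 genes, CDH1, CDH26 and PCDH1, and under their lower quartile for 42, or 77.8% where the quartile sets 25%. In 41 of these the value was under the lower quartile on every array. No detection call was used, so how far such dim signals stand above background is not known here, and a dim signal can understate a difference in RNA.

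After MBD2 knockdown no cadherin or protocadherin gene passed the test. In limma's moderated test over all 16704 genes, 0 of the 54 had an adjusted p under 0.05 (background 0%), and 0 had an unadjusted p under 0.05, in either direction. A plain equal-variance test also gave 0 at an unadjusted p under 0.05, where it gave 8.44% of all genes. Over all genes 9.39% had an unadjusted p under 0.05, 3.93% as higher and 5.45% as lower, and among the 4176 genes with a mean under the lower quartile 5.27% did. The values of the groups did not overlap in 0 of the 54 genes, against 15.4% of all genes and 9.7% of the dim ones. The smallest adjusted p of the family was 0.648, for PCDHB13. Mean signal was higher after knockdown for 30 genes and lower for 24 (27 and 27 after quantile normalization). The median log2 fold change was 0.013 (all genes, -0.0043), and the median size of the difference was 0.065 (all genes, 0.092).

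Some settings brought single genes past an unadjusted p of 0.05. Weighted by their scatter, the arrays counted from 0.252 (knockdown clone 1) to 3.43 (knockdown clone 2), so that knockdown clone 2 counted most. That weighting brought 4 genes past that level, FAT3, PCDHB3, PCDHB9 and PCDHB17P, where it did so for 19.9% of all genes. Leaving out 1 clone did so for FAT3, PCDH20 and PCDHB3 (without knockdown clone 1, 16% of all genes), PCDH10 and PCDHB1 (without knockdown clone 2, 7.44%) and PCDHB18P (without control clone 2, 6.78%). None had an adjusted p under 0.05 there. With 1 clone left out the groups did not overlap in 2 to 9 of the 54 genes, against 22.9% of all genes without knockdown clone 3 and 35.1% without knockdown clone 1, and after quantile normalization in 1, CDH7, against 15.1%.

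The intervals bound what could have been missed. The 95% interval of the difference, unadjusted for the number of genes, lay within 2-fold either way for 54 of 54 genes, and over all genes for 97.4%. Within 1.5-fold it lay for 51 of 54, and over all genes for 87.7%. The 3 genes whose interval reached beyond 1.5-fold were CDH26 (-0.23 to 0.86), PCDHB13 (-0.086 to 0.59) and PCDH20 (-0.63 to 0.44). For the dim genes these bounds are on the array scale and hold for the signal only.

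**Figure D2:**
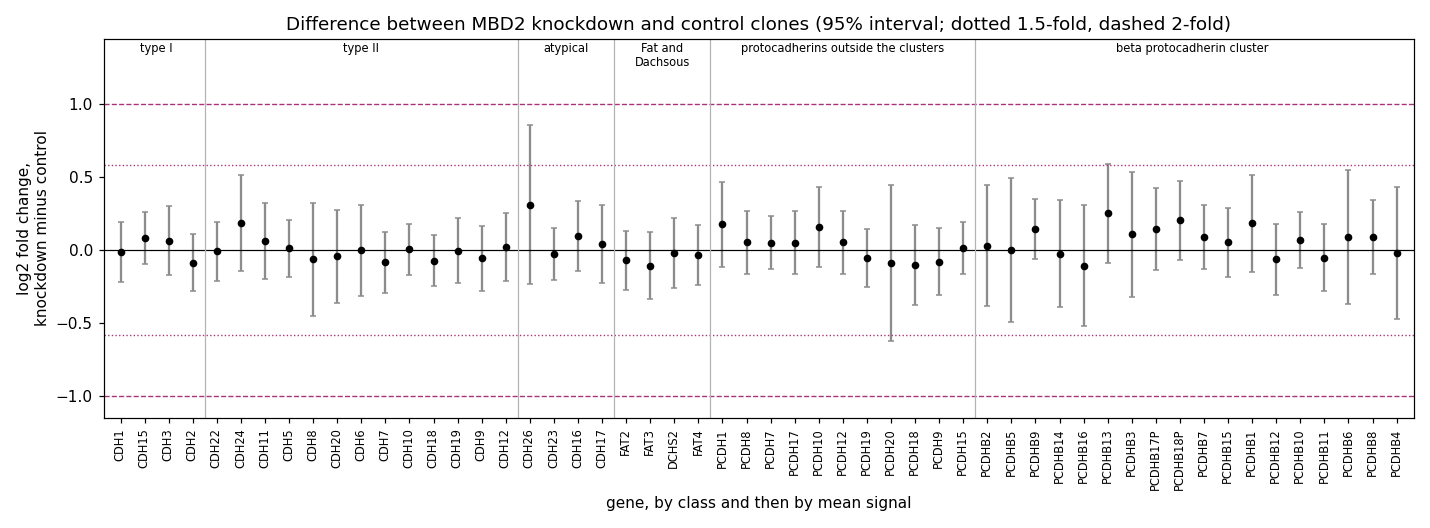
Log2 fold change of each gene, knockdown minus control (y axis), with its 95% interval from limma as bars, genes on the x axis by class as in the plot of signals; dotted lines mark 1.5-fold and dashed lines 2-fold. All intervals include 0, and those of CDH26, PCDHB13 and PCDH20 cross a dotted line.

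Among the type I classical cadherins, CDH1 codes for E-cadherin, the adhesion protein of epithelial junctions. Its signal was 10.39, 10.46 and 10.58 in control clones 1, 2 and 3 and 10.52, 10.37 and 10.51 in the knockdown clones. It was in the top of every array (98.2% of genes had a lower mean), and the clones of both groups lay within 0.21 of each other on the log2 scale. The log2 fold change was -0.011 (SE 0.089, 95% interval -0.22 to 0.20, adjusted p = 0.983 in limma). In whole cultures a difference in the share of cells with CDH1 RNA and one in RNA per cell cannot be told apart.

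CDH2, which codes for N-cadherin and is known to replace E-cadherin in mesenchymal transition, stood at 3.99, 4.05 and 3.86 in the control clones and at 3.91, 3.91 and 3.82 in the knockdown clones. Every value was under the lower quartile of its array, and the groups overlapped. Its log2 fold change was -0.087 (95% interval -0.28 to 0.11). CDH3, which codes for P-cadherin of basal epithelium and lies next to CDH1 on chromosome 16, read 4.27, 4.20 and 4.08 in the controls against 4.41, 4.18 and 4.15 after knockdown. Knockdown clone 1 was the highest and the other clones were mixed (log2 fold change 0.065, 95% interval -0.17 to 0.30). CDH15, the M-cadherin of muscle, had 5.89, 5.78 and 5.82 against 5.94, 5.95 and 5.85. The lowest knockdown clone lay below control clone 1, so the groups overlapped, with a log2 fold change of 0.084 and an SE of 0.077.

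The 13 type II cadherins, which include CDH5 of endothelium, CDH11 of mesenchyme and several cadherins of neurons, were dim, with 11 of 13 means under the lower quartile. Their log2 fold changes ran from -0.082 for CDH7 to 0.19 for CDH24, and 5 had a higher mean in the knockdown clones. That count was 3 after quantile normalization, 1 without knockdown clone 1 and 8 without knockdown clone 3. CDH24, a type II cadherin that binds catenins as its relatives do, read 4.93, 4.88 and 4.95 in the controls and 5.44, 4.90 and 4.98 in the knockdown clones. Only knockdown clone 1 stood apart, and clones 2 and 3 lay within or just above the control values (unadjusted p = 0.225 in limma). Its log2 fold change was 0.022 without that clone. CDH22, a cadherin of the brain, read 5.42, 5.41 and 5.58 against 5.54, 5.40 and 5.44, a log2 fold change of -0.0079. Endothelial CDH5 had a control mean of 4.14 and a knockdown mean of 4.15. CDH8, a neuronal cadherin, was highest in control clone 3 (4.56), with the other 5 clones between 3.97 and 4.24.

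Among the atypical cadherins, CDH26, found in epithelial cells, gave clear signal and had the largest difference of the family with all 6 clones, which rested on control clone 3. It stood at 7.60, 7.48 and 6.70 in control clones 1, 2 and 3 and at 7.35, 7.71 and 7.65 in the knockdown clones. Control clone 3 was the lowest of all, while control clones 1 and 2 lay among the knockdown values. The log2 fold change of 0.31 (SE 0.23, unadjusted p = 0.222 in limma) was smaller than the SD of the controls, 0.49, and was 0.030 without control clone 3. CDH16, a cadherin of kidney tubules, CDH17, of liver and intestine, and CDH23, of the tip links of hair cells, had log2 fold changes of 0.097, 0.045 and -0.028. The CDH23 values were 4.87, 4.87 and 4.81 against 4.87, 4.75 and 4.85, with a range of 0.13 over all 6 clones.

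The 4 genes followed from the Fat and Dachsous group, FAT2, FAT3, FAT4 and DCHS2, were dim. This group of giant cadherins acts in planar polarity and Hippo signalling, and its FAT1 and DCHS1 had no single-gene feature here. All 4 had lower means in the knockdown clones, as did 51.3% of all genes and 1666 of the 4176 dim ones. Without knockdown clone 3 this held for 3 of the 4. With 1 clone left out FAT4 ran from -0.10 to 0.014 and DCHS2 from -0.085 to 0.052. FAT3 was 3.47, 3.50 and 3.49 in the controls and 3.57, 3.25 and 3.32 in the knockdown clones. Knockdown clones 2 and 3 lay below all controls and clone 1 above them, so the groups overlapped, with a log2 fold change of -0.11 (SE 0.099, unadjusted p = 0.318 in limma). Without knockdown clone 1 it was -0.20 (unadjusted p = 0.0295, adjusted p = 0.249), and without knockdown clone 2 it was -0.041. FAT2, FAT4 and DCHS2 had -0.070, -0.036 and -0.018.

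Of the 11 protocadherins outside the clusters, PCDH1, an adhesion protein of airway and other epithelia, was the only one with a mean above the median of all genes. Its values were 6.82, 7.15 and 7.01 in control clones 1, 2 and 3 and 6.98, 7.20 and 7.33 in the knockdown clones. Knockdown clones 2 and 3 were the highest, but clone 1 lay below control clones 2 and 3, and the log2 fold change of 0.18 had an SE of 0.12. It ran from 0.090 to 0.27 with 1 clone left out. PCDH8, a protocadherin of synapses, had 4.96, 4.92 and 4.94 against 5.09, 5.06 and 4.83.

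PCDH10, PCDH17 and PCDH20 are known as genes silenced by promoter methylation in several cancers. PCDH10 read 4.38, 4.36 and 4.30 in the controls and 4.73, 4.29 and 4.51 in the knockdown clones. Clones 1 and 3 lay above all controls and clone 2 below them (log2 fold change 0.16, SE 0.12, unadjusted p = 0.219 in limma). Without knockdown clone 2 it was 0.27 (unadjusted p = 0.043, adjusted p = 0.665), without knockdown clone 1 it was 0.047, and with array weights 0.0070. PCDH17 had a control mean of 4.74 and a knockdown mean of 4.79 (SD 0.075 and 0.12, n = 3 each).

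PCDH20 varied between clones of both groups. It was 3.28, 3.38 and 3.75 in the controls and 3.90, 3.15 and 3.09 in the knockdown clones, with control clone 3 and knockdown clone 1 high. The log2 fold change was -0.091 in the full fit and -0.35 without knockdown clone 1 (unadjusted p = 0.0493, adjusted p = 0.311). Without knockdown clone 3 it turned to 0.055. The remaining ones, PCDH7, PCDH9, PCDH12, PCDH15, PCDH18 and PCDH19, had log2 fold changes between -0.0995 and 0.053, and each had overlapping groups.

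Of the 18 genes of the beta cluster 13 had a higher and 5 a lower mean after knockdown, and 0 passed the test. A higher mean was also found for 8138 of all 16704 genes and for 2510 of the 4176 dim ones. The median log2 fold change of the beta genes was 0.079. It was 0.063 after quantile normalization (11 higher), 0.15 without knockdown clone 1 (15 higher) and 0.021 without knockdown clone 3 (10 higher). They were dim, with 17 of 18 means under the lower quartile. Their sequences are related, so a feature may also read a sister gene, which was not tested. The smallest p of the family belonged to PCDHB13, whose values were 3.64, 3.86 and 3.54 in the controls and 3.79, 3.79 and 4.23 in the knockdown clones. Knockdown clone 3 was high, and clones 1 and 2 lay below control clone 2 (log2 fold change 0.25, SE 0.14, unadjusted p = 0.122 in limma). Without knockdown clone 3 it was 0.11.

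PCDHB9 had 4.11, 4.05 and 3.89 in the controls against 4.15, 4.22 and 4.11 in the knockdown clones. The lowest knockdown value lay just below the highest control value (log2 fold change 0.14, SE 0.088). The pseudogene PCDHB18P was low in control clone 1, at 3.04, with 3.46 and 3.29 in the other controls and 3.55, 3.40 and 3.45 after knockdown. Without control clone 2 its log2 fold change went from 0.20 to 0.30 (unadjusted p = 0.0393, adjusted p = 0.728), and without control clone 1 to 0.094. The pseudogene PCDHB17P had 3.77, 3.41 and 3.53 against 3.69, 3.86 and 3.58, a log2 fold change of 0.14 (0.062 to 0.24 with 1 clone left out). Beta genes not described singly, PCDHB4, PCDHB6, PCDHB7, PCDHB8, PCDHB10, PCDHB11, PCDHB12, PCDHB14, PCDHB15 and PCDHB16, had log2 fold changes between -0.11 and 0.092.

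The beta genes differed more between clones of a group than the other classes did. The median within-group SD was 0.19 in the beta cluster, 0.12 over the 54 genes and 0.13 over all genes. It was also 0.13 in genes with a mean under the lower quartile. The difference between these medians was not tested.

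At the start of the cluster 1 clone read the highest. In PCDHB1, PCDHB2, PCDHB3, PCDHB4, PCDHB5 and PCDHB6, which are the first 6 genes of the cluster by position, knockdown clone 3 had the highest of the 6 values each time. It lay 0.34 to 0.52 above the mean of the controls on the log2 scale, in a pattern that was picked after the values were seen. The next clone was close in PCDHB6 (3.20 against 3.15 in control clone 2) and PCDHB3 (4.08 against 4.03 in knockdown clone 2). The gap was wider in PCDHB1, PCDHB2, PCDHB4 and PCDHB5. PCDHB1, PCDHB4 and PCDHB6 were very dim, with 4.5%, 0.994% and 3.52% of genes having a lower mean. PCDHB2, the beta gene with a mean above the lower quartile, read 5.14, 5.29 and 5.43 in control clones 1, 2 and 3 and 5.04, 5.19 and 5.72 in the knockdown clones. Clones 1 and 2 were within or below the controls and clone 3 above them, and the log2 fold change was 0.030 (SE 0.18).

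PCDHB5 showed the same split between knockdown clones, with 4.20, 4.37 and 4.44 in the controls and 4.00, 4.16 and 4.85 after knockdown. Knockdown clones 1 and 2 were the lowest of all 6 and clone 3 the highest, and the means of the groups were both 4.34. PCDHB1, which lacks the shared promoter element, had 2.92, 2.77 and 2.93 against 3.13, 2.75 and 3.30. Clones 1 and 3 were high and clone 2 the lowest (log2 fold change 0.18, unadjusted p = 0.235 in limma). Without knockdown clone 2 it was 0.34 (unadjusted p = 0.0186, adjusted p = 0.59), without knockdown clone 3 it was 0.065, and with array weights 0.029. PCDHB3 had 3.97, 3.61 and 3.65 against 3.45, 4.03 and 4.08, with clone 1 the lowest and clones 2 and 3 the highest. Without knockdown clone 1 its log2 fold change went from 0.11 to 0.31 (unadjusted p = 0.0399, adjusted p = 0.282), and without knockdown clone 3 to -0.0057.

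Further along the cluster knockdown clone 3 was not the highest each time. It was the highest in 3 of the other 12 beta genes, PCDHB8, PCDHB10 and PCDHB13, and the lowest of all in PCDHB16, where it was 0.37 below the control mean. Over the cluster it was the highest array in 9 of 18 genes, or 50%, where over all genes it was in 14.5%. These genes are neighbours with closely similar sequences, so they were not treated as independent, and this share was given no test.

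**Figure D3:**
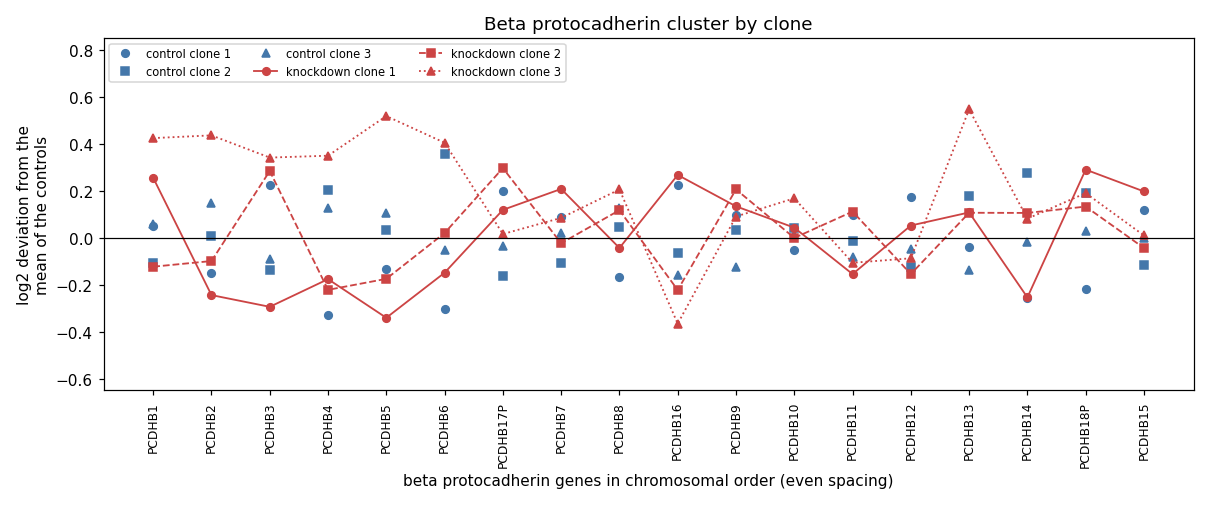
Deviation of each clone from the mean of the 3 controls (y axis, log2) for the 18 beta protocadherin genes in chromosomal order (x axis, evenly spaced), controls as blue markers and knockdown clones as red lines. Knockdown clone 3 lies 0.34 to 0.52 above the control mean in the first 6 genes, where clones 1 and 2 are mixed.

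Knockdown clone 1 read high in dim genes across the whole array, and the family followed this. It was the highest of the 6 arrays in 43.9% of all genes with a mean under the lower quartile and in 17 of the 42 such genes of the family (40.5%). Over all genes it was the highest in 31.1%, and over the 54 genes in 23 (42.6%). The classes were uneven, with 4 of 18 beta genes (22.2%), 6 of 13 type II cadherins (46.2%) and 7 of 11 protocadherins outside the clusters (63.6%). This unevenness was not tested. The median deviation of the 54 genes from the control mean was 0.085 in clone 1 and -0.021 and -0.018 in clones 2 and 3. Among all dim genes these were 0.11, -0.018 and -0.020. Without clone 1 the median log2 fold change of the family was -0.014, and after quantile normalization, which gives all arrays 1 distribution, it was -0.0026.

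At the promoters, the 7 genes with at least 20 CpG in the window, DCHS2, CDH23, PCDH8, PCDH9, CDH8, CDH2 and PCDH19, had log2 fold changes between -0.087 and 0.053. Of these 6 were below 0, as were 11 of the 29 genes with fewer CpG and 51.3% of all genes, and the difference between these shares was not tested. The smallest unadjusted p of the 7 in limma was 0.334. The 29 genes with fewer CpG ran from -0.11 for PCDHB16 to 0.31 for CDH26, with a median of 0.019. Genes without a promoter sequence, CDH1, PCDH10 and PCDH20 among them, are in neither group.

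Genes that work with the cadherins were read from 6 lists, and 0 of their 105 measured genes had an adjusted p under 0.05 in limma. An unadjusted p under 0.05 was found for 8, or 7.62%, near the 9.39% of all genes. Of 19 measured catenins and plaque proteins, which tie cadherins to the skeleton, 1 was higher and 1 lower at that level, with a median log2 fold change of -0.073. PPL, a plakin of cornified junctions, had 0.46 (adjusted p = 0.315) and CTNNAL1, an alpha-catenin relative, had -0.40 (adjusted p = 0.404). CTNNB1, beta-catenin, had -0.21 with an unadjusted p of 0.0994.

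Of 18 other members of the cadherin superfamily, which include desmosomal and seven-pass cadherins, 2 were higher and 1 lower at an unadjusted p under 0.05, with a median of 0.076. CLSTN3, a calsyntenin, stood at 6.51, 6.50 and 6.47 in the controls and 6.80, 6.79 and 6.90 in the knockdown clones. All knockdown values lay above all controls, with a log2 fold change of 0.34 (SE 0.075, adjusted p = 0.272). DSC1, a desmocollin of the epidermis, had -0.28 (adjusted p = 0.393), and CELSR2, a seven-pass cadherin of planar polarity, had 0.19 (0.522). The 18 measured repressors and activators of CDH1 transcription had a median of 0.011, and 0 had an unadjusted p under 0.05. SNAI1 and SNAI3, zinc finger factors of the Snail family, had the smallest p of that list, with 0.25 and 0.17.

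Proteases and other genes of cadherin turnover, 13 measured, had a median of -0.051 and 0 at an unadjusted p under 0.05, with 0.32 for the ubiquitin ligase gene RNF43 and -0.18 for APH1A, a subunit of gamma-secretase. Of 12 measured genes for regulators of the protocadherin clusters or of X inactivation, 9 had lower means, as did 51.3% of all genes. In this list 1 had an unadjusted p under 0.05 in limma. RAD21, a subunit of cohesin, had -0.26 (adjusted p = 0.399) and SMC3, another subunit, had -0.22 (0.551). CTCF had -0.20 (unadjusted p = 0.0691 in limma). Of 25 genes of the Fat, Dachsous and Hippo pathway 1 was higher and 1 lower, TEAD2 with 0.29 and VANGL1 with -0.27, and the median was -0.021.

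**Figure D4:**
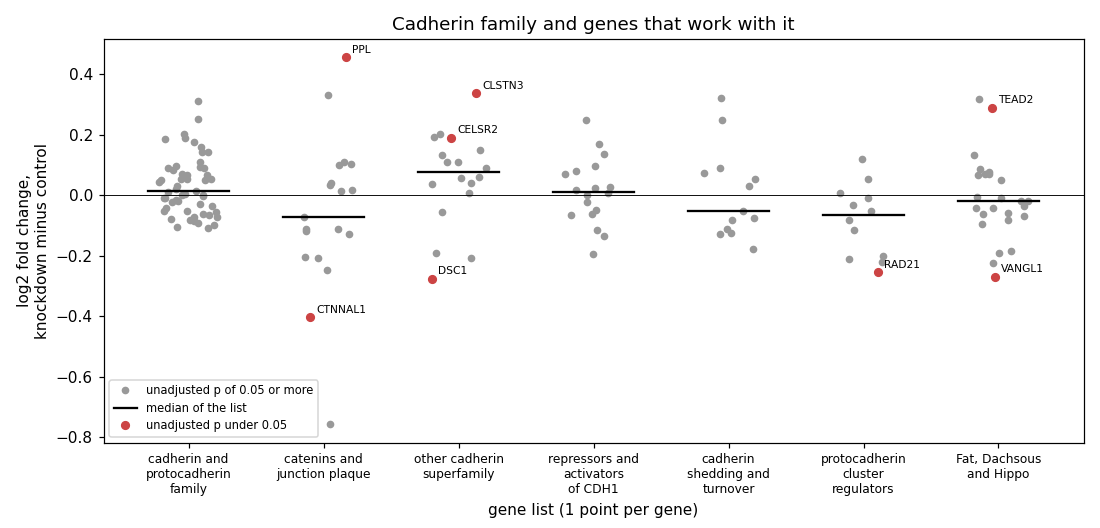
Log2 fold change, knockdown minus control (y axis), of each gene of the family and of the 6 lists of genes that work with it (x axis, 1 point per gene, side spread within a list only for legibility). Black bars are medians, red points have an unadjusted p under 0.05, and the family's 54 points, between -0.11 and 0.31, hold no red one.

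Further features name several members at once and were tested apart from the single-gene features, over 2378 such or unnamed features. The feature shared by 15 alpha protocadherin genes read 3.94, 3.95 and 4.04 in the controls and 4.19, 3.97 and 3.92 in the knockdown clones, a log2 fold change of 0.052 (adjusted p = 0.84 in limma). Both features shared by the paralogues PCDH11X and PCDH11Y had log2 fold changes of 0.15 and 0.26 (adjusted p = 0.621 and 0.458 in limma).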

How the data were processed

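Expression was measured on 6 arrays, 3 control and 3 knockdown, grouped by their titles. The deposited table holds 1 log2 value per feature and array, which the authors obtained by RMA. The submitters' processing notes name RMA, oligo and limma. For versions and for any filter nothing was stated in the labels, and the log2 scale was read from the range of the values. No further scaling was applied.

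Features were named from GEO's platform annotation. Of 19712 features, 17334 had 1 gene symbol, and a gene with several was represented by its brightest on average. The 54 genes followed here and the gene lists were chosen with earlier results of these data known. Features naming several members (alpha protocadherins, PCDH11X with PCDH11Y) were tested apart, and gamma protocadherins were not analysed here.

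The groups were compared in limma 3.58.1 (R 4.3.3; lmFit, then eBayes) with no covariate, and p-values were adjusted over 16704 genes after Benjamini and Hochberg. With 3 arrays per group their number limits the precision. On simulated data with 200 of 16704 genes changed, 89.6% of 2-fold and 98.8% of 4-fold changes were recovered, with 4.99% false calls. The simulated noise was independent and of equal spread for a gene on every array, without differences between clones. The real clones differ, so these shares do not tell what would be recovered here. In the data MBD2, with a log2 fold change of -1.28, had an adjusted p of 0.111 in limma. Values in each clone are given for the 12 members with the smallest p, the 8 with the highest mean, and CDH1, CDH2 and CDH3. Values in each clone of PCDHB3, PCDHB5, PCDH20 and CDH23, and other genes beyond these, were chosen after their values were seen. List genes named are the 2 with the smallest p, with CTNNB1, CELSR2 and CTCF added. Alternatives were other scalings (median centring, quantile), other tests (a plain equal-variance test, a mean-variance trend with robust eBayes, weighted arrays, a replicate block), other features (averaging those of a gene, dropping the dimmest 30% of genes) and dropping each array. The CpG and element counts used Python 3.11.15 with pandas 2.3.3.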

Additional observations from a re-analysis of the deposited data

How the results depend on the processing

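No alternative gave a member an adjusted p under 0.05. With array weights 3 members were higher and 1 lower at an unadjusted p under 0.05, where 19.9% of all genes were under it. Leaving out 1 array gave 0 to 2 higher and 0 to 2 lower members. Without knockdown clone 1, where 1 was higher and 2 lower, 16% of all genes were under it. Members whose groups did not overlap numbered 1 after quantile normalization (CDH7, lower) and 2 to 9 with 1 array left out, the 9 without knockdown clone 1, where 35.1% of all genes did not overlap. The median of the members was 0.057 without the dimmest 30% of genes, which kept 6 members, and -0.014 to 0.047 with 1 array left out.

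Of 17 named members 13 kept their direction under every alternative in which they were measured. The mean-variance trend, the plain test, the replicate block, averaging features and dropping dim genes leave the fold change of a member unchanged. Those settings could not turn a direction. Of the 17, 12 were named for their small p in these same values. CDH1 turned to 0.039 after quantile normalization and ran from -0.057 to 0.042 with 1 array left out. PCDHB2 turned to -0.0087 after quantile normalization and -0.0011 with array weights, and ran from -0.17 to 0.17 with 1 array left out. With 1 array left out CDH22 ran from -0.048 to 0.049 and CDH3 from -0.018 to 0.11. The causes were not tested.

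The replicate numbers do not pair the clones. Deviations from the group means correlated across genes at -0.025, -0.189 and 0.174 for numbers 1, 2 and 3, and only number 3 had its best match in its own number. With the replicate block 0 members had an unadjusted p under 0.05, as did 1576 of all genes (1568 without it), and the median of the members was 0.013.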
